A study of Mus musculus with 12 samples.

Results

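Double and single RNAi against *Kdm6a* were compared in PGK12.1, a line of female mouse embryonic stem (ES) cells, on 8 of the 12 expression arrays of the series. The members were chosen by cell line and treatment alone: experiments 1 and 2 had 2 rounds of siRNA (double RNAi) and experiments 3 and 4 had 1 round (single RNAi), each with 1 control and 1 *Kdm6a* RNAi array. In single RNAi, 100 pmol of siRNA was given and cells were harvested at 48 h. In double RNAi, 800000 cells were then transfected again with 400 pmol in 100 mm plates and harvested 24 h later, 72 h after the start. The control cells of each regimen went through the same number of rounds with negative control siRNAs, so a change below is the log2 difference between the *Kdm6a* RNAi array and the control array of its experiment. PGK12.1 came from an embryo with a 129 mother and a (129 × PGK)F1 father, is a single line, and was used at passages 14 to 18 after the MEF feeder cells had been depleted on gelatin. *Kdm6a* was targeted with a pool of siRNAs. Number of rounds, dose and time of harvest all differ between the regimens and cannot be told apart. The array run is not stated in the sources used here and may differ as well. With 2 experiments per regimen, p-values measure only the spread between these experiments, which may be technical. The other 4 arrays (2 experiments with single RNAi in WD44, a male ES cell line) lent only their spread to the fit. They also counted in the mean level by which genes were chosen for testing.

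*Kdm6a* lies on the X chromosome and encodes KDM6A (UTX), a demethylase that removes methyl groups from lysine 27 of histone H3, a mark placed by Polycomb repressive complex 2 and found over silent developmental genes. KDM6A also belongs to a complex with the H3K4 methyltransferases KMT2C and KMT2D, which acts at enhancers. In ES cells many developmental promoters carry both marks. An siRNA lowers mRNA first, while the protein already made and the histone marks decay or are diluted over later cell divisions.

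Values were log2 intensities, and a level is given here as the linear value over the mean of its array. Median log2 values were 6.15 to 6.21 on the arrays of experiments 1 and 2, 6.47 and 6.48 in experiment 3 and 8.2 and 8.21 in experiment 4, so levels of different experiments were not on 1 scale. Of 19951 genes, the 15340 with a mean level of at least 0.1 were tested (*Lcn5* and *Xdh* lay just inside this minimum, *Lrrc17* and *Olfr444* just outside). All 9 ES cell markers were above the array mean on all 8 arrays, with *Pou5f1* at 8.74 to 11.9 and *Nanog* at 9.64 to 13.5. Summed over 13 markers measured, embryonic fibroblast genes reached 2.08 to 2.42 in experiments 1 and 2 and 1.81 to 2.82 in experiments 3 and 4, and *Postn*, *Lum* and *Fap* were below the minimum. The sum of 10 primitive endoderm markers was lower on the *Kdm6a* RNAi array of each experiment, at 4.62 against 5.47, 4.73 against 5.51, 4.14 against 4.81 and 6.96 against 8.47, mostly through *Sparc*, which is not particular to that cell type.

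*Kdm6a* itself was decreased in all 4 experiments. Its level went from 1.81 in the control to 0.74 after RNAi in experiment 1, from 2.04 to 0.728 in experiment 2, from 1.84 to 0.691 in experiment 3 and from 3.05 to 1.57 in experiment 4. The decreases were 58.5%, 64.6%, 62.6% and 48.6%, or 61.6% ± 4.31 (SD, n = 2) after double and 55.6% ± 9.9 (SD, n = 2) after single RNAi. The regimens overlapped, since experiment 3 lay between both double experiments. The log2 change was -1.385 after double and -1.19 after single RNAi, and their difference of -0.195 (95% confidence interval -0.53 to 0.14) did not pass the test (adjusted p = 0.752, limma). The 2 experiments of a regimen were farther apart than the means of the regimens were.

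No single gene had a regimen difference that withstood adjustment over all genes. Of 15340 genes, 0 (0%) had an adjusted p under 0.05 in limma, and the smallest adjusted p was 0.489. At an unadjusted p under 0.05 the difference of log2 changes, double minus single, held 1364 genes (8.89%), 734 of them higher (4.78%) and 630 lower (4.11%). With quantile normalization the share of higher genes among them was 42.6% and with changes centred on their median 46.2%, against 53.8% here, so the balance of directions depended on the scaling. The methods' own test, without moderated variances, also called 0 genes after adjustment and 971 before it, and limma with a trend and robust moderation called 1 gene, *Snora16a* (adjusted p = 0.0399). The 95% confidence interval of a difference reached 0.22 to either side in the median gene. This is no limit of detection for the adjusted test, which also failed to call much larger differences. *Rnf128*, with a difference of 0.86, had an adjusted p of 0.489 (limma). The 0 calls thus do not exclude differences above 0.22. An interval beside a difference below is this 95% confidence interval. It is adjusted neither for the number of genes nor for a choice of genes by these same values. The adjusted p of each difference was 0.489 or higher.

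Each regimen alone did change genes. After double RNAi 344 genes rose (2.24%) and 208 fell (1.36%), and after single RNAi 55 rose (0.359%) and 63 fell (0.411%), at an adjusted p under 0.05. These 2 counts rested on few experiments: the 552 genes of double RNAi became 15 without experiment 1, 0 without experiment 2 and 182 without experiment 3 or 4, and the 118 of single RNAi became 0 without experiment 3 or 4. Without *Kdm6a*, 77 genes were called in both regimens, 14% of those of double RNAi and 65.8% of those of single RNAi. All 77 moved in the same direction, 37 up and 40 down, with a median size of 0.47 after double and 0.485 after single RNAi, and the change was larger after double RNAi in 35 and after single RNAi in 42. A larger number of calls after double RNAi is not in itself a test that the regimens differ, since each call is made against 0. Of the 551 genes called there besides *Kdm6a*, 244 had an unadjusted p under 0.05 for the difference, against 8.89% of all tested genes. Choosing genes by their double RNAi change raises this count, so it is a description only.

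Genes called in one regimen were also read in the experiments of the other, with which they share no array. These readings are a description, since the spread in the fit was pooled over all experiments and the other regimen thus had a part in the calls. Of the 344 genes that rose after double RNAi, 286 were above 0 in both single RNAi experiments, against 29.6% of all tested genes, and their median change went from 0.365 to 0.187. Of the 207 that fell, 163 were below 0 in both, against 26.1% of all genes, with medians of -0.365 and -0.20. In the other direction, 54 of the 55 genes that rose after single RNAi were above 0 in both double experiments (35.1% of all genes), with medians of 0.455 and 0.40, and 57 of the 62 that fell were below 0 in both (25.9%), with medians of -0.47 and -0.418. A smaller median outside the experiments that chose the genes is partly set by the choice itself. The SD of the changes over all genes was also wider after double RNAi, at 0.181 and 0.165 against 0.159 and 0.139. By the interquartile range, at 0.22 and 0.19 against 0.19 and 0.15, experiments 2 and 3 were equal. Experiment 4, with the smallest spread, was on another array scale.

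**Figure D1:**
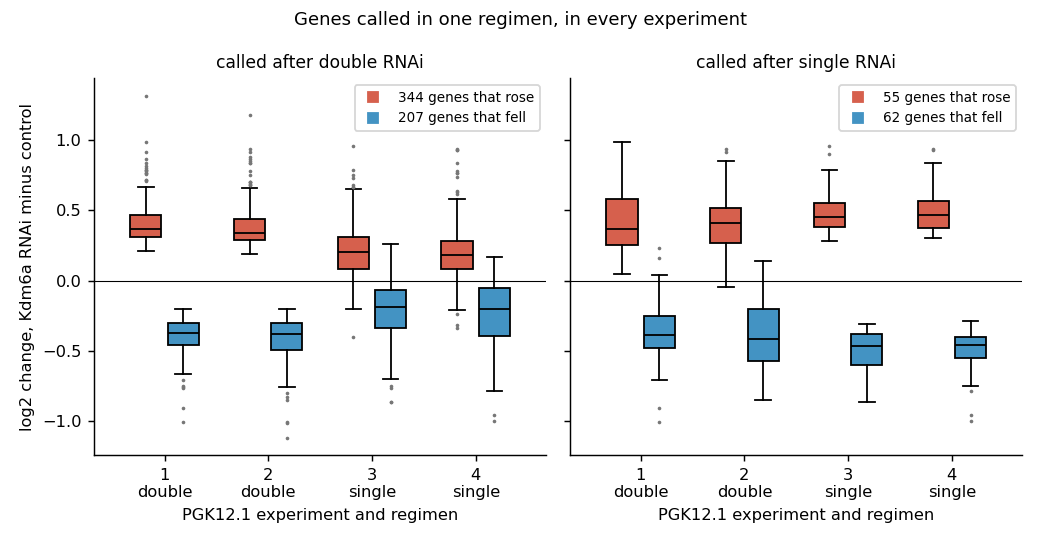
Log2 change after *Kdm6a* RNAi (vertical axis) in each PGK12.1 experiment (horizontal axis) for the genes called after double RNAi (left) or single RNAi (right), without *Kdm6a*; boxes span the quartiles with the median as a line, whiskers reach the last gene within 1.5 box lengths, and red boxes hold genes that rose, blue boxes genes that fell. The 344 rises and 207 falls of double RNAi have smaller medians in experiments 3 and 4, while the 55 rises and 62 falls of single RNAi stay near their size in experiments 1 and 2.

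Across genes, changes correlated at r = 0.421 between the double experiments, 0.354 between the single experiments and 0.293 to 0.364 across regimens, a description over genes, which are not independent replicates. Both double changes lay beyond both single changes in 5627 genes (36.7%), a share that needs no difference between regimens. Among the 1364 genes at an unadjusted p under 0.05, the mean change had opposite signs in the regimens in 979 (71.8%, against 35.7% of all tested genes), was larger after double RNAi with the same sign in 299 (21.9%, against 37.3%) and larger after single RNAi in 86 (6.3%, against 27%). Choosing genes by a large difference favours opposite signs, so these shares describe the genes and test nothing.

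**Figure D2:**
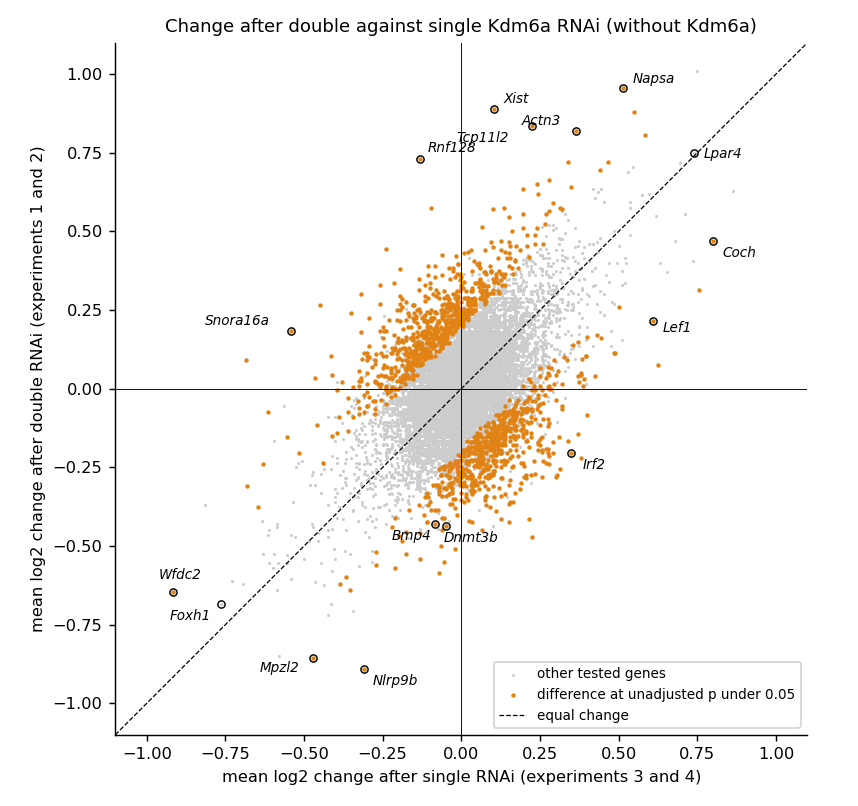
Mean log2 change after double RNAi (vertical axis, experiments 1 and 2) against that after single RNAi (horizontal axis, experiments 3 and 4) for the tested genes without *Kdm6a*, with genes at an unadjusted p under 0.05 for the difference in orange, genes described in the text circled and equal change as a dashed line. *Napsa*, *Actn3*, *Mpzl2* and *Nlrp9b* lie farther from 0 on the double axis with the same sign on both, *Lpar4* lies near the dashed line, and most orange points have opposite signs.

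Among the 8 largest rises and the 8 largest falls called after double RNAi, several had the same sign in all 4 experiments and an interval of the difference that left out 0. These genes were chosen by their double RNAi change, which is part of the difference. Their differences thus lean toward a larger change after double RNAi, and the intervals describe the genes and are no test. *Napsa*, which encodes the aspartic protease napsin A, changed by 0.99 and 0.92 in the double and by 0.56 and 0.47 in the single experiments. *Actn3*, a muscle alpha-actinin, changed by 0.79 and 0.85 against 0.39 and 0.34. For both genes all 4 changes were above 0, the regimens did not overlap, and both regimens were called (adjusted p = 0.00184 for each after double, 0.0163 and 0.0431 after single RNAi, limma). The differences were 0.44 (95% confidence interval 0.23 to 0.65) for *Napsa* and 0.455 (0.25 to 0.66) for *Actn3*. *Tcp11l2* changed by 0.79 and 0.88 after double but 0.35 and 0.10 after single RNAi, a difference of 0.61 (0.34 to 0.88), and only the double regimen was called. *Sema3e*, a secreted guidance ligand, and *Dglucy* (0.77 and 0.84 against 0.55 and 0.62) were called in both regimens, with smaller differences of 0.33 (0.03 to 0.63) and 0.22 (0.03 to 0.41).

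On the falling side, *Mpzl2*, an adhesion molecule of epithelia, changed by -0.91 and -0.80 after double and -0.49 and -0.45 after single RNAi and was called in both. Its difference was -0.385 (-0.59 to -0.18). *Nlrp9b*, an NLR family gene expressed in oocytes and early embryos, changed by -0.77 and -1.01 against -0.33 and -0.29, a difference of -0.58 (-0.82 to -0.34), and was called after double RNAi (adjusted p = 0.00335) but not after single RNAi (adjusted p = 0.109). In *Lefty2*, a Nodal inhibitor and target, the changes of -1.01 and -0.69 against -0.64 and -0.52 also did not overlap, but the difference of -0.27 had an interval of -0.59 to 0.05. For *Tspan1* and *Mitf* 1 experiment carried the double RNAi value: *Mitf*, a melanocyte and retinal pigment epithelium factor, changed by -0.285 and -1.125 against -0.31 and -0.38, and *Tspan1* by -0.42 and -1.02 against -0.51 and -0.34.

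**Figure D3:**
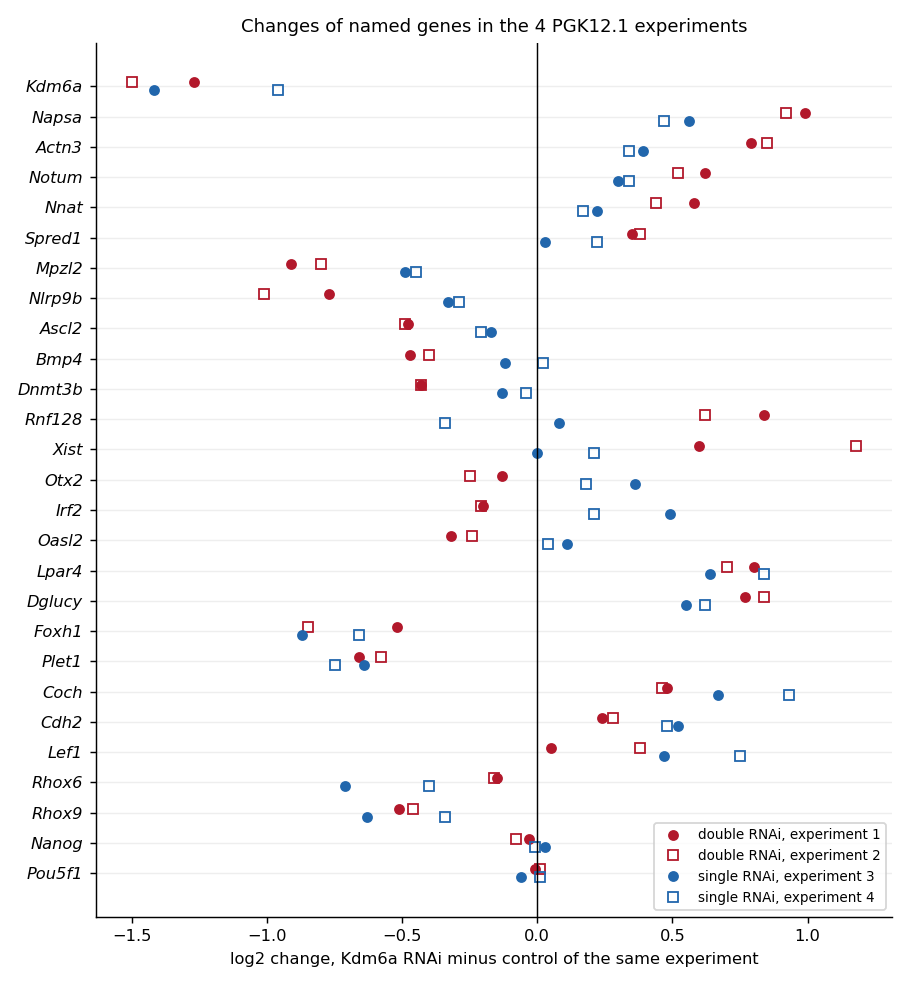
Log2 change after *Kdm6a* RNAi (horizontal axis) of named genes (vertical axis), with 1 point per PGK12.1 experiment: red for double and blue for single RNAi, filled circles for experiments 1 and 3 and open squares for experiments 2 and 4. Red and blue points are apart with red farther from 0 from *Napsa* down to *Dnmt3b*, on opposite sides of 0 for *Otx2*, *Irf2* and *Oasl2*, and mixed or close for *Kdm6a*, *Lpar4*, *Foxh1* and *Pou5f1*.

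Of the 15340 tested genes, 552 (3.6%) were called after double RNAi, and 8.89% had an unadjusted p under 0.05 for the difference. A total of 183 genes met both and had an unadjusted p of 0.05 or more after single RNAi, 106 of them rises and 77 falls. This filter uses the difference itself, so the count is a description and no test of a response particular to double RNAi. The 183 genes include members of several pathway lists, of which *Dnmt3b* and *Bmp4* are given in full. *Dnmt3b*, a de novo DNA methyltransferase that rises when ES cells leave the naive state, went from a level of 2.29 to 1.68 in experiment 1 and from 2.22 to 1.66 in experiment 2, but from 1.95 to 1.78 in experiment 3 and from 2.20 to 2.14 in experiment 4. Its log2 changes were -0.43 and -0.43 against -0.13 and -0.04, with an adjusted p of 0.0169 after double and 0.612 after single RNAi (limma). The difference of -0.345 had an interval of -0.55 to -0.14.

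*Bmp4*, a BMP ligand that acts on ES cell self-renewal and on mesoderm, went from 1.60 to 1.14 and from 1.57 to 1.2 after double RNAi, against 1.38 to 1.27 and 4.16 to 4.23 after single RNAi. The log2 changes of -0.47 and -0.40 against -0.12 and 0.02 gave a difference of -0.385 (-0.59 to -0.18), with adjusted p = 0.0167 after double and 0.785 after single RNAi. *Ascl2*, an imprinted trophoblast transcription factor, fell after double RNAi (-0.48 and -0.49, adjusted p = 0.00919), and had changes of -0.17 and -0.21 after single RNAi, which were not called (adjusted p = 0.192). *Nnat*, an imprinted gene expressed in brain and elsewhere, rose after double RNAi (0.58 and 0.44, adjusted p = 0.00948) against 0.22 and 0.17, also not called (adjusted p = 0.212). Their differences were -0.295 (-0.48 to -0.11) and 0.315 (0.12 to 0.51). In all 4 genes both double changes lay beyond both single changes, with the same sign of the mean. The regimens were apart in this way in 1359 of the 1364 genes at an unadjusted p under 0.05 for the difference, against 36.7% of all tested genes. For these 4 genes it thus follows from their choice.

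The promoters of these 4 genes are shown because the genes changed by close values in both double experiments and less in both single experiments. They are 300 bases around the start of each gene from RefSeq (GRCm38.p6), 5′ to 3′ on the strand of the gene, with each CG in capitals (CG reads the same on both strands).
Dnmt3b, chr2:153649199-153649498, plus strand: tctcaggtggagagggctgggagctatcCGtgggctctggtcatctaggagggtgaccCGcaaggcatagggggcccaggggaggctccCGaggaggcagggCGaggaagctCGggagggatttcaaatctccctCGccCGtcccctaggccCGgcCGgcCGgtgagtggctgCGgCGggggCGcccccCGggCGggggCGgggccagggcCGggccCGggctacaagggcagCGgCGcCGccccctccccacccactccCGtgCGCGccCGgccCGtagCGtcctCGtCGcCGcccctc
Bmp4, chr14:46390620-46390919, minus strand: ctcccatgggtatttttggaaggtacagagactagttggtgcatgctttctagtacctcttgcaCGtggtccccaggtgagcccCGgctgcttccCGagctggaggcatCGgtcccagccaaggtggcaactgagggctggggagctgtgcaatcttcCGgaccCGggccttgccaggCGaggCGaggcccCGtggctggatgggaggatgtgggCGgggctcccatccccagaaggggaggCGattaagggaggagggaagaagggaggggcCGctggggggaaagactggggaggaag
Ascl2, chr7:142969215-142969514, minus strand: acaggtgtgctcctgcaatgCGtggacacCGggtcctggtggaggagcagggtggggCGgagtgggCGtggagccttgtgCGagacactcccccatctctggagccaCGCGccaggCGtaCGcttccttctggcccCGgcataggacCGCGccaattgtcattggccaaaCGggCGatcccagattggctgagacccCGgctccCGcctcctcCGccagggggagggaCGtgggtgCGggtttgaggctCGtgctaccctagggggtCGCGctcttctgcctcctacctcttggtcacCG
Nnat, chr2:157559828-157560127, plus strand: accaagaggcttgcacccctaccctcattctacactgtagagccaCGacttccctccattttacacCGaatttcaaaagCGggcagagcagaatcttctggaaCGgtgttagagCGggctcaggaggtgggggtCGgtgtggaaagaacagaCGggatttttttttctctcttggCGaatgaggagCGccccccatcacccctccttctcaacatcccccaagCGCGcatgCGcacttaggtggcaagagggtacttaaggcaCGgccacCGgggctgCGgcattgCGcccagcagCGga
The number of CG was 30 in *Dnmt3b*, 12 in *Bmp4*, 23 in *Ascl2* and 17 in *Nnat*. Of 32851 mouse promoters of this length, with a median of 7 CG, 11.7%, 39.6%, 21.5% and 31.4% held at least as many. This describes the sequences only, since the arrays measured neither histone marks nor DNA methylation.

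*Ascl2* and *Nnat* had an unadjusted p under 0.05 after single RNAi and are not among the 183. Further genes that are, all but *Stra8* named after their values were seen, were *Penk* (0.47 and 0.68 against -0.03 and 0.30), which encodes the enkephalin precursor, *Vegfc*, a lymphangiogenic growth factor (0.44 and 0.49 against 0.10 and 0.09), and *Hes1*, a Notch target (0.47 and 0.41 against 0.27 and -0.02), which all rose after double RNAi. *Otx1*, a head-patterning homeobox gene (-0.40 and -0.42 against -0.13 and 0.01), *Mc5r*, a melanocortin receptor (-0.55 and -0.62 against -0.21 and 0.07), and the meiotic gene *Stra8* (-0.54 and -0.54 against -0.18 and -0.08) fell.

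The 15 largest higher differences ran from 0.53 to 0.86 and the 15 largest lower ones from -0.695 to -0.515. In both directions most of them combined mean changes of opposite sign. *Xirp1*, an actin-binding gene of striated muscle, fell after double RNAi (-0.37 and -0.48, adjusted p = 0.0242) and changed by 0.26 and 0.04 after single RNAi. *A4gnt*, a glycosyltransferase of gastric mucins, changed by -0.34 and -0.21 against 0.40 and 0.21, and *Vrtn* by -0.20 and -0.36 against 0.26 and 0.25, with neither regimen called in either gene. The rest were *Nlrp9b*, *Mir297b*, *Zfp442*, *Gask1a*, *Csf1*, *Fign* (mean level 0.0888 in PGK12.1), *Irf2*, *Rxrg*, *Znrf4*, *Olfr1417*, *Pcdh18* and *Acta2*. On the higher side, *Adam1a*, a gene of a sperm metalloprotease family, rose after double RNAi (0.46 and 0.30, adjusted p = 0.0302) and changed by -0.18 and -0.21 after single RNAi, and *Gm10874* and *Olfr645* had differences of 0.59 each (0.33 to 0.85 and 0.20 to 0.98).

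On the X chromosome, *Rnf128* and *Xist* had the 2 largest higher differences among the genes at an unadjusted p under 0.05 whose regimens did not overlap. *Rnf128*, an E3 ubiquitin ligase, went from 0.214 to 0.378 and from 0.236 to 0.366 after double RNAi, and from 0.288 to 0.305 and 0.403 to 0.319 after single RNAi. Its changes of 0.84 and 0.62 against 0.08 and -0.34 gave a difference of 0.86 (0.51 to 1.21), and it was called after double RNAi only (adjusted p = 0.0169, against 0.656). *Xist*, the non-coding RNA that coats and silences the inactive X chromosome and is low in undifferentiated ES cells, went from 0.105 to 0.158 and from 0.0877 to 0.201 after double RNAi, from 0.161 to 0.161 in experiment 3 and from 0.351 to 0.406 in experiment 4. It rose after double RNAi (0.60 and 1.18, adjusted p = 0.0127) and was not called after single RNAi (0.00 and 0.21, adjusted p = 0.759). The difference was 0.785 (0.40 to 1.17), and it ranged from 0.495 to 1.075 over the alternative settings.

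Of the 500 X-linked genes tested besides *Kdm6a* and *Xist*, 22 (*Rnf128* among them) were higher and 24 lower after double RNAi at an unadjusted p under 0.05 (9.2%, against 8.89% of all genes), and the median difference was 0.015 against 0.01. *Car5b*, which escapes X inactivation, had changes of 0.29 and 0.52 against 0.13 and 0.21 (difference 0.235, 0.01 to 0.46), and *Bgn* of -0.40 and -0.01 against -0.01 and 0.56. Of 13 escape genes tested, 2 were higher (*Xist* and *Car5b*) and 1 lower (*Bgn*). *Uty*, the Y-linked relative of *Kdm6a*, ranked first of all genes by p (changes of 0.34 and 0.26 against -0.40 and -0.24, adjusted p = 0.489 for the difference), but PGK12.1 is female and the level of *Uty* on its arrays was 0.0198 to 0.0371, below the minimum, which it passed only through the male WD44 arrays. Of the 118 genes named by the rule, 5 had a mean below the minimum in PGK12.1 (*Uty*, *Vaultrc5*, *Fign*, *Plac8* and *Ankrd1*).

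Small RNA genes were looked at as a group after their values were seen. Of the 15 genes with the largest higher difference, *Snord118*, *Snora16a*, *Snora75* and *Snord82* are small nucleolar RNAs (snoRNAs), which guide modification or processing of other RNAs, *Rny3* and *Vaultrc5* encode a Y RNA and a vault RNA, *Rnu3a* is a U3 RNA gene and *n-R5s136* a 5S rRNA gene. *Vaultrc5* was at 0.0427 to 0.143 in PGK12.1, with a mean below the minimum, and *Snord118* at 0.0328 to 0.0681 in experiments 1 to 3. *Snora16a* changed by 0.23 and 0.14 after double and by -0.62 and -0.46 after single RNAi, a difference of 0.725 (0.44 to 1.01), and fell after single RNAi (adjusted p = 0.0384). *Rny3* changed by 0.53 and 0.00 against -0.40 and -0.50, and *n-R5s136* by -0.18 and 0.03 against -0.70 and -0.53. For these 3 genes the regimens were apart, mostly through negative values after single RNAi. Of 130 microRNA genes, 6 were higher and 8 lower at an unadjusted p under 0.05, and of 3 RNase P RNA genes 0.

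Of 52 snoRNA genes tested, 45 had a difference above 0, and 20 were higher and 0 lower at an unadjusted p under 0.05 (38.5%, against 4.78% higher among all genes). The count of 20 became 12 without experiment 1, 8 with the methods' own test and 0 without the replicate block. Their median change was 0.05 and -0.01 in the double experiments and -0.135 and -0.23 in the single experiments. Both single changes were below 0 in 41 of the 52 and both double changes in 10. In WD44, which had single RNAi, the medians were -0.165 and -0.11, so the median snoRNA gene was below 0 in all 4 experiments with single RNAi and near 0 in both with double RNAi. After single RNAi in PGK12.1 5 snoRNA genes fell (*Snora16a*, *Snora74a*, *Snord22*, *Snord35a* and *Snord47*), against 0.411% of all genes, and after double RNAi 2 rose (*Snora75* and *Snora23*), against 2.24%. Control levels differed between experiments, at 0.338, 0.332, 0.634 and 2.63 for *Snora16a* and 0.195, 0.268, 0.704 and 4.13 for *Snord82* in experiments 1 to 4, and the part of the RNA preparation of each experiment in these values was not tested. The median difference was 0.185, stayed above 0 with quantile normalization (0.17) and with centred changes (0.175), and was 0.20 to 0.29 when an experiment was left out. The spread among them was wide, from -0.96 to 0.67 over the double experiments, where the lowest was *Snord58b* in experiment 2.

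**Figure D4:**
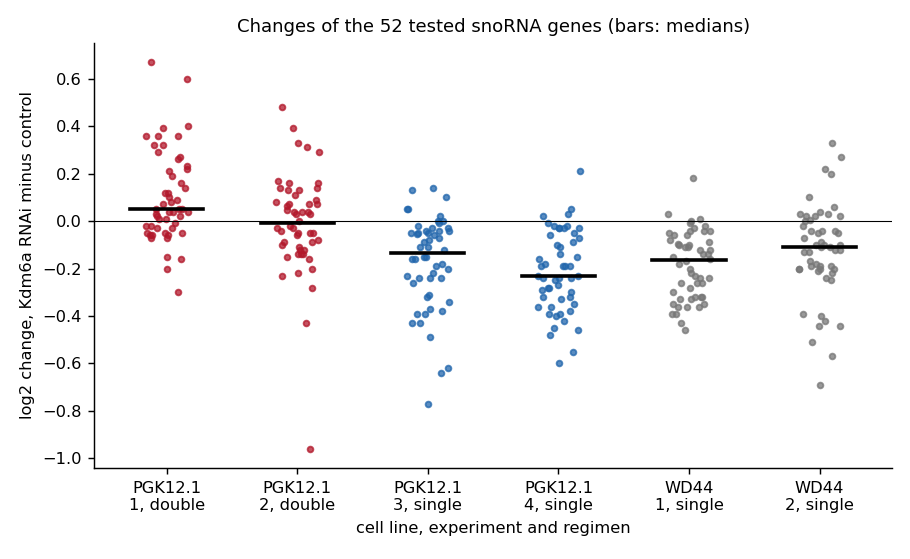
Log2 change after *Kdm6a* RNAi (vertical axis) of the 52 tested snoRNA genes in each experiment of the series (horizontal axis), 1 point per gene, with the median as a bar: PGK12.1 double RNAi in red, PGK12.1 single RNAi in blue and WD44 single RNAi in grey. The medians are 0.05 and -0.01 after double RNAi and lie between -0.23 and -0.11 in the single RNAi experiments.

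Counts over the pathway lists are given beside the shares of all tested genes, 4.78% higher and 4.11% lower, and whether a list differed from other genes was not tested. Of 30 nuclear genes of the respiratory chain and ATP synthase (oxidative phosphorylation), 6 were higher (20%) and 0 lower at an unadjusted p under 0.05, 23 were above 0 and the median difference was 0.065 (0.01 over all genes). *Sdhb*, a subunit of complex II, rose after double RNAi (0.33 and 0.26, adjusted p = 0.0495) and changed by -0.09 and 0.00 after single RNAi, a difference of 0.34 (0.13 to 0.55). The complex IV subunit gene *Cox5a* changed by 0.14 and 0.08 against -0.11 and -0.25 and the ATP synthase gene *Atp5o* by 0.10 and 0.05 against -0.13 and -0.16, with neither regimen called in either gene. The count of 6 became 2 without experiment 1 and 1 without experiment 4, and 4 with quantile normalization.

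Of 23 genes of FGF and MAPK signalling and its feedback, 5 were higher (21.7%) and 0 lower, with a median difference of 0.045 (0.011 with quantile normalization). *Spred1* and *Spred2* encode inhibitors of the RAS to MAPK step. *Spred1* rose after double RNAi (0.35 and 0.38, adjusted p = 0.0306) against 0.03 and 0.22, and *Spred2* changed by 0.225 and 0.26 against 0.005 and -0.05 (difference 0.265, 0.08 to 0.45). *Dusp9*, an X-linked MAPK phosphatase, fell after single RNAi (-0.49 and -0.39, adjusted p = 0.0213) and had -0.20 and -0.27 after double RNAi. The effector genes *Etv4* (0.20 and 0.09 against -0.08 and -0.17) and *Fosl1* (0.15 and 0.25 against -0.08 and 0.05) were called in neither regimen. *Dusp9* and *Fosl1* were named after their values were seen, to complete the 5. The count of 5 became 2 without experiment 1 and 3 without any other one.

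Of 16 primed pluripotency genes tested, 4 were lower (25%, against 4.11% of all genes) and 0 higher, with a median of -0.093. The count of 4 became 2 without experiment 4. Apart from *Dnmt3b*, the differences came from opposite or smaller changes: *Otx2*, a transcription factor of the primed state, changed by -0.13 and -0.25 after double and 0.36 and 0.18 after single RNAi (difference -0.46, -0.72 to -0.20), with neither regimen called. *Lef1*, a Wnt effector, and *Cdh2*, N-cadherin, rose after single RNAi (0.47 and 0.75, and 0.52 and 0.48, adjusted p = 0.0316 and 0.0163) and had smaller values after double RNAi (0.05 and 0.38, and 0.24 and 0.28) that were not called. *Fgf15* rose and *Cldn6* and *Car14* fell in both regimens, with differences of 0.025 (-0.21 to 0.26), 0.03 (-0.16 to 0.22) and 0.03 (-0.20 to 0.26), all 3 named after their values were seen. The primed genes thus did not move as 1 group.

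Of 20 feeder genes tested, 5 were lower (25%) and 0 higher, with a median of -0.08 (-0.113 after double and 0.073 after single RNAi), and none was called in a regimen. With a minimum level of 0.25, 9 feeder genes remained, of which 1 was higher and 1 lower, with a median of -0.035. The lower share thus depended on genes of low level. *Col5a2* changed by -0.14 and -0.17 against 0.13 and 0.08. *Bgn* (-0.40 and -0.01 against -0.01 and 0.56) and *Tnc* (-0.21 and -0.22 against -0.02 and 0.58) owed much of their difference to experiment 4. The count of 5 became 2 without experiment 1 or 4. Outside the feeder list, the smooth muscle actin gene *Acta2* changed by -0.29 and 0.00 against 0.10 and 0.64. *Acta2*, *Csf1*, *Pcdh18* and *Xirp1*, none of them on the feeder list, were picked from the 15 genes with the largest lower difference. *Acta2* is on the list of actin and SRF-YAP targets, which had 1 member higher and 2 lower and a median of -0.013. *Tagln* of that list went the other way, with a difference of 0.225 to 0.505 over the alternative settings. The summed level of the fibroblast markers moved from 2.42 to 2.16, 2.14 to 2.08, 1.81 to 1.81 and 2.82 to 2.78 from control to *Kdm6a* RNAi in experiments 1 to 4, and the part of remaining feeder cells in these differences was not tested.

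**Figure D5:**
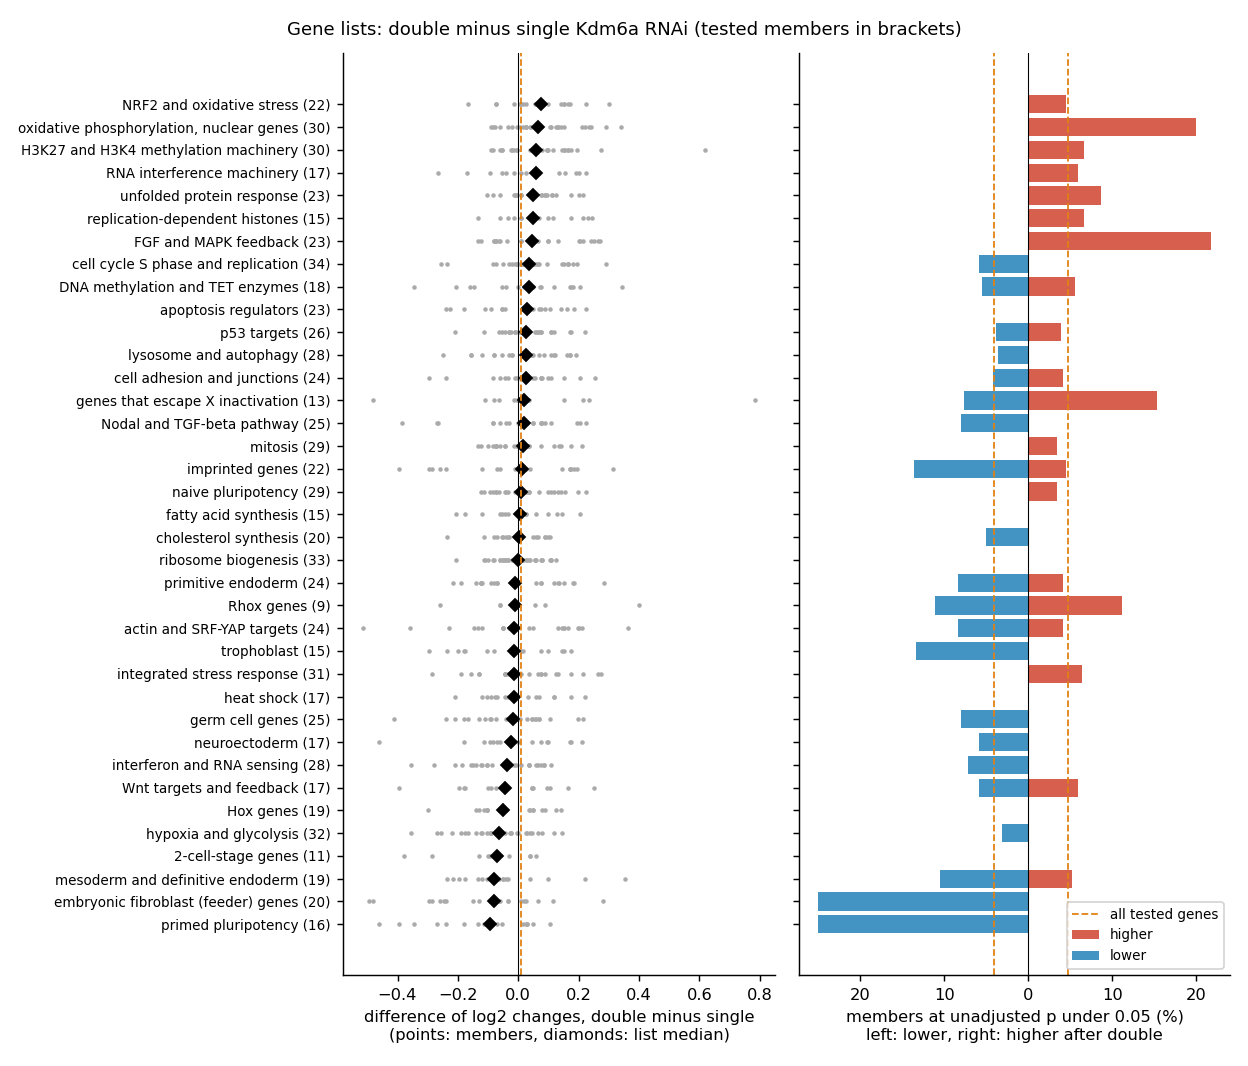
Gene lists (vertical axis, with the number of tested members) by the difference of log2 changes, double minus single RNAi (left, grey points for members and black diamonds for medians), and by the percentage of members at an unadjusted p under 0.05 (right, red for higher and blue for lower). Dashed lines give all tested genes (a median of 0.01, 4.78% higher and 4.11% lower), and every list median lies between -0.093 and 0.075.

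In each of the remaining lists at most 2 members were higher and at most 3 lower. Of 22 imprinted genes, 1 was higher (*Nnat*) and 3 lower (18.2% in all, against 8.89% of all genes, with *Ascl2*, *Grb10* and *Zim1* as the lower ones and *Zim1* named after its values were seen), and the lower count was 1 to 4 when an experiment was left out. Of 19 mesoderm and definitive endoderm genes, 1 was higher (*Gsc*) and 2 lower (*Foxa2* and *Hand1*, 15.8% in all), with a median of -0.08 that became 0 without experiment 1. Of 15 trophoblast genes, 0 were higher and 2 lower (13.3%), of 24 primitive endoderm genes 1 and 2 (12.5%), of 17 neuroectoderm genes 0 and 1, of 25 germ cell genes 0 and 2, of 25 Nodal and TGF-beta genes 0 and 2 and of 17 Wnt genes 1 and 1. Of 30 genes of the H3K27 and H3K4 methylation machinery besides *Kdm6a*, 2 were higher (*Uty* and *Kmt2d*, the latter with 0.13 and 0.15 against -0.23 and -0.035) and 0 lower, and of 18 genes of DNA methylation 1 was higher and 1 lower. No member of the *Hox* (19 tested), 2-cell-stage (11), heat shock (17), fatty acid synthesis (15), ribosome biogenesis (33) and apoptosis (23) lists had an unadjusted p under 0.05.

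Some lists bear on the transfection itself. The controls had the same number of siRNA rounds, so a response shared by both kinds of siRNA cancels in a change. These counts thus cannot show whether such a response took place. Of 28 interferon and RNA-sensing genes, 0 were higher and 2 lower: *Oasl2*, an interferon-induced gene, changed by -0.32 and -0.24 against 0.11 and 0.04 (difference -0.355, -0.59 to -0.12), and *Zbp1*, a nucleic acid sensor, by -0.04 and -0.11 against 0.05 and 0.36. *Irf2*, an interferon regulatory factor outside that list, changed by -0.20 and -0.21 against 0.49 and 0.21 (difference -0.555, -0.80 to -0.31), and was called in neither regimen. Of 17 genes of the RNA interference machinery, 1 was higher (*Tnrc6b*). Of 26 p53 targets 1 was higher and 1 lower, of 31 genes of the integrated stress response 2 higher and 0 lower, of 23 of the unfolded protein response 2 and 0, and of 22 of the NRF2 response 1 and 0. *Dnajc3*, an endoplasmic reticulum chaperone gene (0.45 and 0.47 against 0.29 and 0.23), *Mthfd2*, of mitochondrial folate metabolism (0.27 and 0.35 against 0.07 and 0.00), and the DNA repair gene *Xpc* (0.40 and 0.31 against 0.11 and 0.16) rose after double RNAi and were not called after single RNAi. At an adjusted p under 0.05 (limma), 3 p53 targets and 2 unfolded protein response genes rose after double RNAi (2.24% of all genes). After single RNAi 0 rose in either list (0.359% of all genes). The median changes of the p53 targets were nevertheless close, at 0.102 after double and 0.11 after single RNAi. For the unfolded protein response they were 0.105 and 0.062, against 0.015 and 0.005 over all tested genes. The calls alone thus do not show a response of these lists particular to double RNAi. Further lists gave 0 higher and 2 lower of 34 S phase genes, 1 and 0 of 29 for mitosis and 1 and 0 of 15 histones. The counts were 0 and 1 of 20 for cholesterol synthesis, 0 and 1 of 28 for lysosome and autophagy and 0 and 1 of 32 for hypoxia and glycolysis. For adhesion they were 1 and 1 of 24, and for actin and SRF-YAP targets 1 and 2 of 24 (12.5%, against 8.89% of all genes).

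Several of the strongest responders to *Kdm6a* RNAi did not differ detectably between regimens. *Lpar4*, an X-linked receptor for lysophosphatidic acid, changed by 0.80 and 0.70 after double and 0.64 and 0.84 after single RNAi, with a difference of 0.01 (-0.25 to 0.27). *Foxh1*, the transcription factor partner of Nodal-activated SMADs, changed by -0.52 and -0.85 against -0.87 and -0.66 (difference 0.08, -0.20 to 0.36). *Plet1*, a trophoblast and epithelial surface protein gene, changed by -0.66 and -0.58 against -0.64 and -0.75 (difference 0.075, -0.14 to 0.29). All 3 were called in both regimens and overlapped between them. *H60b* and *Raet1d*, ligands of the receptor NKG2D, had differences of 0.26 (-0.18 to 0.70) and -0.155 (-0.37 to 0.06).

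For some genes, chosen by their single RNAi change or by the difference itself, the value was larger after single RNAi. *Coch* rose in both regimens, by 0.48 and 0.46 after double and 0.67 and 0.93 after single RNAi (difference -0.33, -0.58 to -0.08), and *Wfdc2* fell in both, with changes of -0.62 and -0.67 against -0.87 and -0.96 (difference 0.27, 0.03 to 0.51). *Ano3*, a gene of the anoctamin family (0.265 and 0.36 against 0.905 and 0.605), *Grb10*, an imprinted adaptor of insulin signalling (0.12 and 0.22 against 0.35 and 0.51), and the cell cycle regulator *Rb1* (0.18 and 0.15 against 0.42 and 0.38) rose after single RNAi and were not called after double RNAi. *Ebf1*, a B cell and neural transcription factor, changed by 0.63 and 0.63 against 0.96 and 0.77, with an interval of the difference that held 0 (-0.55 to 0.08), and *Plac8* changed by -0.34 and -0.41 against -0.75 and -0.54 at a mean level of 0.0609 in PGK12.1.

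The reproductive homeobox genes of the *Rhox* cluster varied among themselves. *Rhox5* fell after double RNAi (-0.33 and -0.34, adjusted p = 0.0278) and had -0.30 and -0.25 after single RNAi, with a difference of -0.06 (-0.25 to 0.13), and for *Rhox9* the difference was 0.00 (-0.29 to 0.29). *Rhox6* had the smaller changes after double RNAi, with a difference of 0.40 (0.04 to 0.76), and *Rhox1* a difference of -0.26 (-0.47 to -0.05). Over the 9 *Rhox* genes tested, the median difference was -0.01, and the median change was -0.06 after double and -0.06 after single RNAi. At an adjusted p under 0.05 (limma), 2 of the 9 fell after double RNAi (1.36% of all genes) and 0 after single RNAi (0.411%). *Rhox* genes are near copies of each other, so probe sets may share signal.

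Genes of the naive pluripotency network had a median change of 0.02 after double and -0.015 after single RNAi. *Utf1*, named after its values were seen, was below 0 in all 4 experiments (-0.28 and -0.24 against -0.28 and -0.09). The difference was -0.065 (-0.25 to 0.12) for *Nanog*, 0.025 (-0.16 to 0.21) for *Pou5f1*, -0.04 (-0.23 to 0.15) for *Sox2*, 0.035 (-0.19 to 0.26) for *Stat3* and 0.10 (-0.21 to 0.41) for *Cd9*, a surface marker of ES cells. Of 29 naive pluripotency genes tested, 1 was higher (*Dppa5a*) and 0 lower, none was called in a regimen, and the median difference was 0.01. *Actb* differed by -0.02 (-0.20 to 0.16).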

How the data were processed

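Total RNA (RNeasy columns) was labelled and run on Affymetrix Mouse Gene 1.0 ST arrays. The authors deposited log2 values of 35556 probe sets, made in Affymetrix Expression Console by RMA (background correction, quantile normalization and a summary over probes). Neither the versions nor the set of arrays that RMA treated jointly are given in the sources used here. RMA compresses low values, so changes of dim genes may be understated. Groups came from the sample labels, and no value was renormalized.

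Of the probe sets, 21789 had 1 gene symbol in the platform annotation, 1621 had several and 12146 had none listed, and 13 *Rhox* probe sets were named from the study's supplement. Where a gene had several probe sets (999 genes), their log2 values were averaged, and 19931 symbols matched RefSeq (GRCm38.p6). Genes with a mean level of at least 0.1 over the 12 arrays were tested with limma 3.58.1 in R 4.3.3 (experiment as a block, 3 Kdm6a effects, 3 residual and 5.47 prior degrees of freedom, Benjamini-Hochberg adjustment, threshold 0.05, two-sided, 95% intervals). The arrays' number limits precision. The study's tests are paired by experiment. To check this pairing, the 2 arrays of an experiment were compared, and their deviations from the group means correlated at 0.138 (double RNAi), 0.964 (single RNAi) and 0.265 (WD44). Experiments 3 and 4 were on different scales, with median log2 values of 6.47 and 6.48 against 8.21 and 8.2. Both arrays of an experiment share its scale, so the 0.964 cannot tell pairing of the cells apart from array scale. The calculation was tested on simulated data.

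Genes named were *Kdm6a*, the 15 largest differences in each direction with unadjusted p under 0.05 and regimens that did not overlap, the 8 largest called changes per regimen and direction, up to 3 members per list with the smallest unadjusted p if under 0.05, and genes the study names. The 37 lists had 935 entries, of which 68 were not measured. The members and lists were chosen with earlier results of these data known. Alternatives were the minimum level, quantile normalization, centred changes, the PGK12.1 arrays alone, limma's trend and robust options, the methods' t-test, single probe sets, no block and each experiment left out. Plots were made in Python 3.11.15 (matplotlib 3.10.9).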

Additional observations from a re-analysis of the deposited data

How the results depend on the processing

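Counts of called genes depended on the setting. The 552 genes called after double RNAi were 75 with no minimum level, 1179 with a minimum of 0.25, 66 with the 8 PGK12.1 arrays alone, 1437 with trend and robust options, 0 with the methods' t-test and 0 to 182 when an experiment was left out. The 118 called after single RNAi were 0, 382, 1, 528, 0 and 0 to 101 in the same order. Without the replicate block, so with unpaired arrays, 0 genes were called in either regimen and 0 differences had an unadjusted p under 0.05 in either direction, since the scale of the arrays then enters the spread. For the difference between regimens, trend and robust options called 1 gene and all other settings 0. At an unadjusted p under 0.05, the 630 lower genes were 337 with a minimum of 0.25, 389 with the methods' t-test (12 genes had no spread and no test) and 433 to 954 when an experiment was left out, and the 734 higher genes 562 to 768. The share of higher genes among them was 68.5% with a minimum of 0.25. Of the 93 named genes with an unadjusted p under 0.05 for the difference, 34 also had it with the methods' t-test, 53 to 60 when an experiment was left out and 0 without the block. A minimum level over the 8 PGK12.1 arrays, added after the data were seen, gave 572 and 117 called genes. Fits without an experiment have fewer residual degrees of freedom, and a regimen left with 1 experiment is assumed to vary like the others. The cause of the other shifts was not tested.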

Other observations

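By chromosome, the share of genes at an unadjusted p under 0.05 for the difference between regimens ran from 6.49% on chromosome 14 to 11.2% on chromosome 9, and the median difference from 0.005 to 0.02 over the autosomes and the X chromosome. Among the other RNA classes, 130 microRNA genes had a median difference of -0.047 (6 higher and 8 lower), 444 long non-coding RNA genes -0.02 (29 and 33) and 14554 protein-coding genes 0.015 (672 and 575). The snoRNA gene *Snord58b* was far from the other snoRNA genes in experiment 2, at -0.96, against 0.02 in experiment 1.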
